A study of Mus musculus and blank sample with 768 samples.

Results

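The interferon response genes described here are 39 mouse genes known to be induced by interferons. They were taken from a fixed list of symbols, and all 39 had a row in both deposited gene tables, which hold 51734 symbols each. The list holds 4 transcription factors, 5 sensors of foreign nucleic acid, 4 Ifit genes, 4 genes acting on double-stranded RNA, 8 GTPases, 4 genes of protein modification and 10 other effectors. Type I interferons bind a surface receptor whose kinases activate a complex holding STAT2 and IRF9, and this complex binds a DNA motif called the interferon-stimulated response element (ISRE). Interferon gamma uses a separate receptor and is a strong inducer of IRF1, the guanylate-binding proteins and the immunity-related GTPases. Endothelial cells carry both receptors and are known to respond to both kinds of interferon.

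The series sequenced single mouse cells after cell sorting, with a full-length cDNA protocol (SMART-seq2, modified) that adds no molecular identifiers. Its title concerns the part that lymphatic endothelial cells take in forming tumour blood vessels. Tumour cells of the Csf1r lineage, called CLEC in the labels, were sorted as CD45- CD31+ GFP+ and filled plates KM3 and KM4. They are set against tumour endothelial cells sorted as CD45- CD31+ GFP- (EC, plate KM2) and against tumour macrophages sorted as CD45+ CD31- GFP- (plate KM1). Lymph node (LN) endothelial cells, all CD45- CD31+, were sorted as GFPlow (named potential CLEC; pools B, C and D), GFP+ (named CLEC; pools A, B and C) and GFP- (pools A, B and C). CD45 is a leukocyte surface protein, CD31 is the endothelial adhesion protein encoded by Pecam1, and Csf1r encodes the receptor for a macrophage growth factor. Strain, genotype, the construct behind GFP, age and tumour type are not given in the sources used here.

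After filtering, 84 CLEC on KM3 and 85 on KM4, 84 EC and 81 macrophages remained from tumours, with 79 GFPlow, 98 GFP+ and 74 GFP- cells from LN. Kept cells held a median of 829498 reads in genes, from 58373 to 3123110. No label names an animal, so each group was 1 sample, no test between groups was run, and a plate or pool served only as a repeat of the comparison. In the tumour every plate held a single gate, so plate and gate cannot be told apart there. Both CLEC plates were set against the same EC plate and the same macrophage plate. A result on both CLEC plates therefore shares its reference cells and repeats only the CLEC side. Pecam1 stood at 1172 CPM in CLEC, 1085 in EC and 5.91 in macrophages, where CPM is reads per 1000000 reads in genes. All 6 endothelial markers together summed to 5196 CPM in CLEC, 6859 in EC and 6.09 in macrophages. The macrophage marker list summed to 2.61 CPM in CLEC, 8.40 in EC and 30254 in macrophages. Prox1, the lymphatic transcription factor, had reads in 74.7% of GFPlow, 79.6% of GFP+ and 36.5% of GFP- LN cells, against 0.592% of tumour CLEC (1 cell) and no EC. By level the list of 7 lymphatic markers ran otherwise, summing to 4268 CPM in GFPlow, 1240 in GFP+ and 5497 in GFP- LN cells. A read of any of these markers was found in 98.7%, 95.9% and 75.7% of the cells. Tumour and LN cells come from separate tables, so their levels stand side by side without a comparison.

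The DNA around the start site of some members holds a motif of the kind through which type I interferons are known to act. A promoter was found for 29 of the 39 members in RefSeq sequence of build GRCm38.p6, from 250 bases before to 50 bases after each start site. The ISRE-type motif searched was GAAA, any 2 bases and GAAA again, or its reverse complement, TTTC, any 2 bases and TTTC. It stood in 17 of these 29, against 3.99% of 27025 genes with a promoter of the same length. In Ddx58, Eif2ak2 and Ifih1 the only match lay after the start site. The 200 bases before the start site are printed 5′ to 3′ on the strand of the gene, with ISRE-type matches in capitals, for Bst2, Isg15, Igtp, Ifit1, Ifit3 and Rsad2, which are described by level here and show a single match, overlapping matches and matches on the other strand. A match describes letters and shows no binding.
Bst2 (chr8:71537473-71537672, minus strand): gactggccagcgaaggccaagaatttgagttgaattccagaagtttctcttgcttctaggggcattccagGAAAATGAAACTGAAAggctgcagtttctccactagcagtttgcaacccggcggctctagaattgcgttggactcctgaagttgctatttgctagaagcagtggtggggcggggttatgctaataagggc
Isg15 (chr4:156200819-156201018, minus strand): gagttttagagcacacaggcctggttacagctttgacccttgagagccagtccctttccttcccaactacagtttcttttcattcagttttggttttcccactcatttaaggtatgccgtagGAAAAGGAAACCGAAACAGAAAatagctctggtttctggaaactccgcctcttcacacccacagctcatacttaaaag
Igtp (chr11:58199356-58199555, plus strand): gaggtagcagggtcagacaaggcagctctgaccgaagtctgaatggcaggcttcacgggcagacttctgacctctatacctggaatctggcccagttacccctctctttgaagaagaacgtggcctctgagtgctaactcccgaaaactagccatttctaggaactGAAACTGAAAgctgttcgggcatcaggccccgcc
Ifit1 (chr19:34640689-34640888, plus strand): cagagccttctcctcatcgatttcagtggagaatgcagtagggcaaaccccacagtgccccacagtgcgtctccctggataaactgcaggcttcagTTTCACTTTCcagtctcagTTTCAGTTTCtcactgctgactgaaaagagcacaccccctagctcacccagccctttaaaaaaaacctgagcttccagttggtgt
Ifit3 (chr19:34583329-34583528, plus strand): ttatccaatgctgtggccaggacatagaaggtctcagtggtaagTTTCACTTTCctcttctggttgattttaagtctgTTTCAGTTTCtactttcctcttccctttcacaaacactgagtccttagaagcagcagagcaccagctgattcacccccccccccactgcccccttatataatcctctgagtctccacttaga
Rsad2 (chr12:26456453-26456652, minus strand): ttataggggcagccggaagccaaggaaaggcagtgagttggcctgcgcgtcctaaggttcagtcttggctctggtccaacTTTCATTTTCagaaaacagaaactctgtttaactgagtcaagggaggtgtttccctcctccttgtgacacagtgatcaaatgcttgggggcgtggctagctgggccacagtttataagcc
The capitals of Bst2 hold 2 overlapping matches and those of Isg15 hold 3. Ifit1 and Ifit3 carry 2 separate matches each, and Igtp and Rsad2 carry 1. On GRCm38 the genes Ifit2, Ifit3, Ifit3b and Ifit1 lie side by side within chr19:34550694-34650009, and 7 members lie on chromosome 11.

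Summed over the 39 members, the level was 1817 CPM in CLEC (1419 on KM3 and 2190 on KM4), 2101 CPM in EC and 2645 CPM in macrophages. In LN it was 3692 CPM in GFPlow cells (4134, 2854 and 3795 in pools B, C and D), 4149 in GFP+ cells (4528, 4097 and 3617 in pools A, B and C) and 5528 in GFP- cells (6087, 5591 and 2536 in pools A, B and C). The lowest LN value came from the GFP- cells of pool C, of which only 8 passed the filter.

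Per kilobase of exon, Bst2 led the list in every endothelial group except GFPlow and GFP- LN cells. Bst2 encodes tetherin, a membrane protein that holds budding virus particles at the cell surface. It stood at 153.8 CPM per kb in CLEC, 161.3 in EC and 215.2 in macrophages, and at 523 in GFPlow, 472 in GFP+ and 365.8 in GFP- LN cells. Reads of Bst2 were found in 64.5% of CLEC (95% interval 56.8 to 71.7), 76.2% of EC (65.7 to 84.8), 84.8% of GFPlow cells (74.97 to 91.9), 90.8% of GFP+ cells (83.3 to 95.7) and 82.4% of GFP- cells (71.8 to 90.3). All intervals cover counting error only, since PCR reads without identifiers are not independent molecules. Ifi27l2a, a small interferon-induced gene, led per kilobase in macrophages (305.6 CPM per kb), GFPlow cells (619) and GFP- LN cells (475), and was second in GFP+ cells (320.9). The same gene had no read in any CLEC, which allows a share of up to 1.78%, and 68 reads in 2 of 84 EC. The next members per kilobase were GTPases: Gbp2 (70.4 CPM per kb), Igtp (50.7) and Ifi47 (48.5) in CLEC, and Igtp (168.3) and Ifi47 (126.03) in GFP- LN cells.

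**Figure D1:**
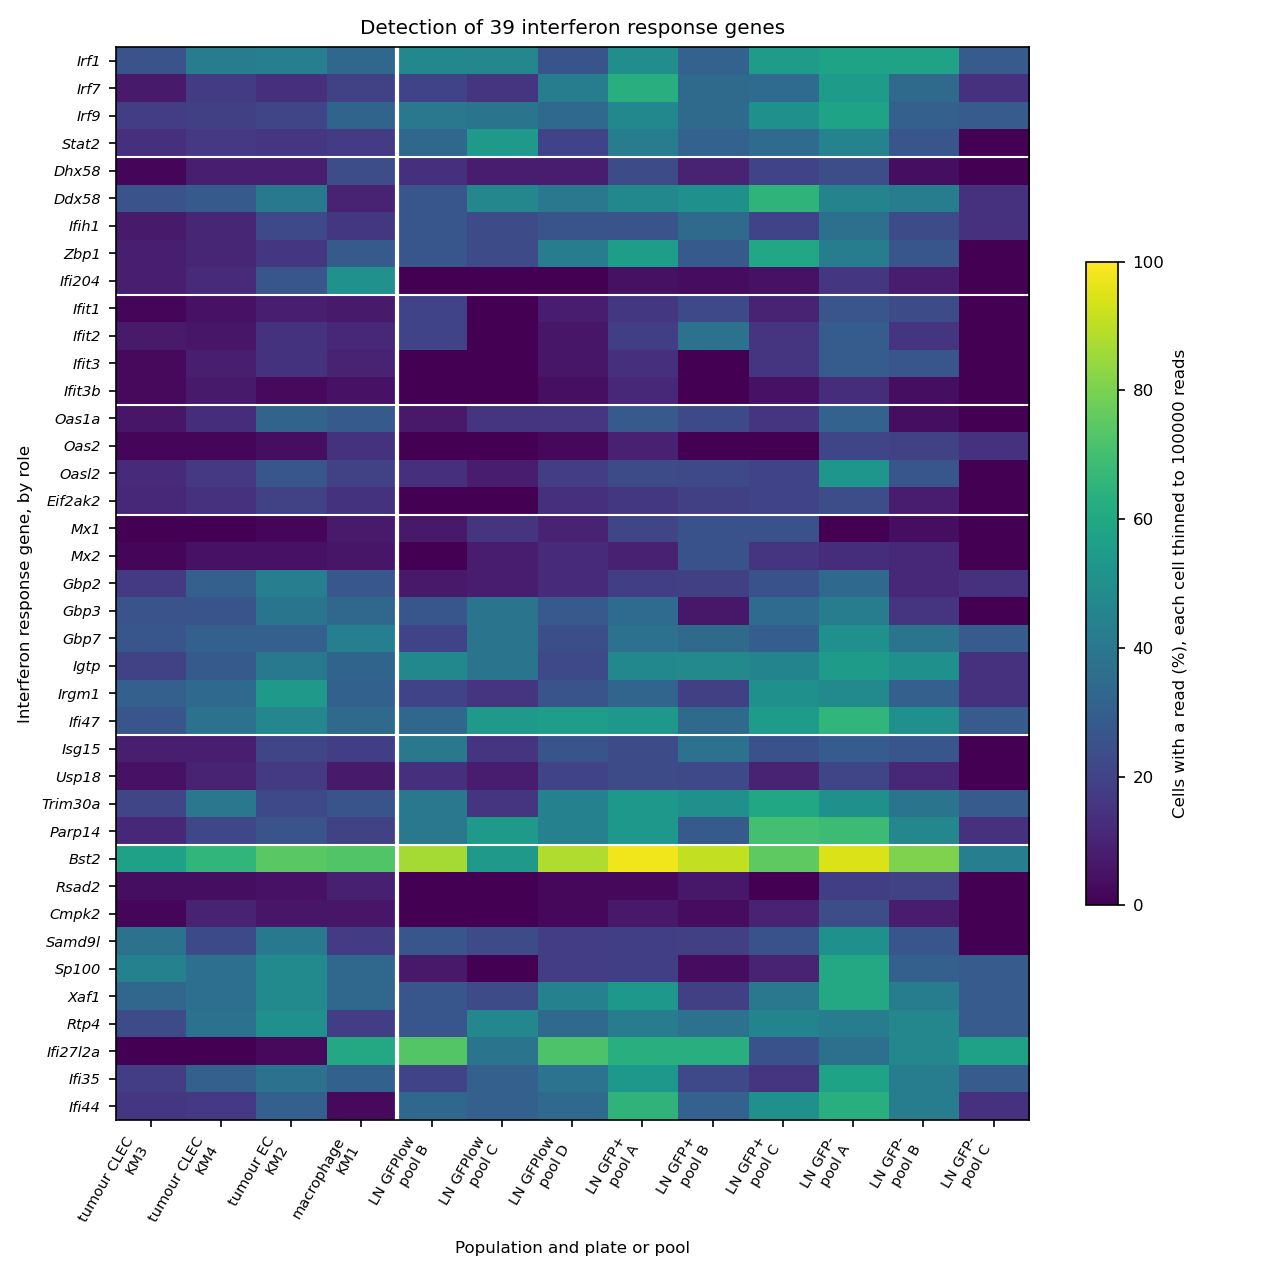
Share of cells with a read of each of the 39 members (rows, by role) in every plate and pool (columns), as a percentage on the colour scale. Bst2 is read in 57.3% and 65.9% of CLEC on KM3 and KM4, and in 97.7%, 90.6% and 75% of GFP+ LN cells of pools A, B and C. Ifi27l2a is read in no CLEC and in 73.3%, 38.5% and 72% of GFPlow LN cells of pools B, C and D.

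Cells carried few members each at equal depth. After each cell was thinned to 100000 reads, the median number of members with a read was 6 on KM3 and 7 on KM4 for CLEC, 9.5 for EC and 7 for macrophages. In LN it was 9 for GFPlow, 11 for GFP+ and 13 for GFP- cells, but 3 for the GFP- cells of pool C. At least 10 members were read in 18.6% of CLEC (12.97 to 25.3), 41 of 82 EC (38.7 to 61.3%) and 29.6% of macrophages (20.0 to 40.8). The share was 13.4% on KM3 and 23.5% on KM4. Genes of all kinds were also fewer in CLEC at this depth, with a median of 2524.5 per cell on KM3 and 2718 on KM4, against 3332 in EC. Across all genes tested, 58.9% had a lower share of cells with a read on both CLEC plates than in EC, and among the members 32 of 38 did. No member had a higher share on both plates, against 12.8% of all genes. Against macrophages, 5 of 39 members had a higher share on both CLEC plates, against 33.5% of all genes, and 24 a lower one, against 46.7%. How far the lower gene number accounts for the members' shares was not tested.

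In LN the share of cells with at least 10 members was 46.2% in GFPlow (34.8 to 57.8), 67.4% in GFP+ (56.98 to 76.6) and 64.8% in GFP- cells (52.5 to 75.8). At equal depth the share of cells with a read was higher in GFP+ than in GFP- cells of every pool for 6 of 39 members, against 16.7% of all genes, and lower for 3, against 9.11%. Between GFPlow and GFP+ cells, 3 of 38 members had a higher share in both pools, against 16.5% of all genes, and 17 a lower one, against 24%. Between GFPlow and GFP- cells, 10 of 39 were higher and 4 lower, where 21.7% and 16.8% of all genes were. The 10% of cells with the highest summed level held 40.97% of the reads of members in CLEC, 34.7% in EC and 43.7% in macrophages. In LN these cells held 21.2% in GFPlow, 19.9% in GFP+ and 28.2% in GFP- cells. The richest cells carried 29 members in CLEC, 30 in EC, 35 in macrophages and 36 among GFP- LN cells.

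**Figure D2:**
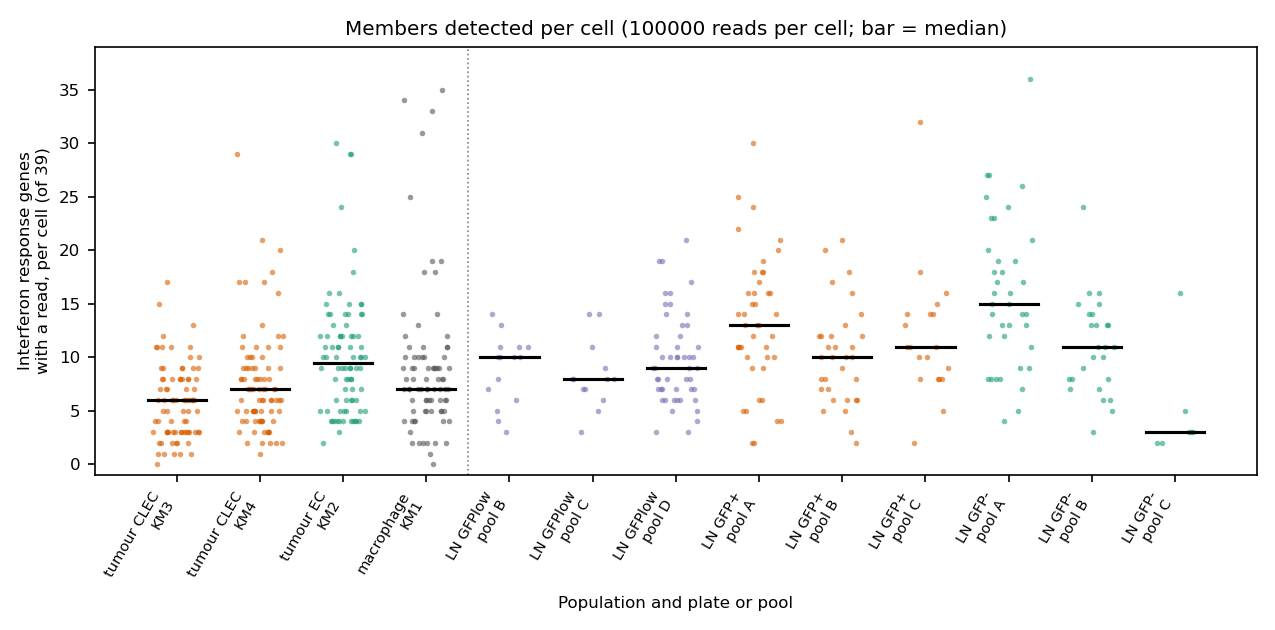
Number of the 39 members with a read in each cell after thinning to 100000 reads (y axis), for every plate and pool (x axis); points are cells and bars are medians. The CLEC plates have medians of 6 and 7 and EC 9.5. In LN the medians run from 3 (GFP- cells of pool C) to 15 (GFP- cells of pool A).

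The first comparison asks how tumour endothelial cells marked as Csf1r lineage differ from unmarked ones. None of the members was at least 2-fold higher in CLEC than in EC and 6 were at least 2-fold lower, 5 of them on both CLEC plates. The lower members were the RNA-binding Ifit1, the DNA sensor Ifi204, the RNA sensor Ifih1, the nucleotide kinase gene Cmpk2, the antiviral GTPase gene Mx1 and Usp18. Among the 13544 genes with at least 1 CPM in either group, 12% were at least 2-fold higher and 11.7% lower; on both plates 4.80% were higher and 7.71% lower. The 6 lower members are 6 of 39 and so lie near that background, whereas 0 of 39 higher members lie below it. The median log2 ratio of the 39 members was -0.37, against -0.10 for all genes, with 31 members below 0 and 8 above.

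Ifi204 belongs to the mouse family of nuclear DNA sensors related to human IFI16. It stood at 9.17 CPM on KM3 and 10.9 on KM4 in CLEC, against 52.1 CPM in EC, a log2 ratio of -2.27. Reads were found in 13.02% of CLEC (8.34 to 19.04) and in 29.8% of EC (20.3 to 40.7). Both plates were low and close to each other.

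Ifih1 encodes MDA5, a helicase that recognises long double-stranded RNA. It stood at 13.4 CPM on KM3 and 13.6 on KM4 in CLEC, against 34.8 CPM in EC (log2 ratio -1.30), with reads in 10.1% of CLEC (5.97 to 15.6) and 26.2% of EC (17.2 to 36.9). Of the 6 lower members, Ifi204 and Ifih1 were read in the most EC, 25 and 22 of 84.

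Ifit1, whose protein binds viral RNA that lacks the host cap modification, stood at 1.53 CPM on KM3 and 6.08 on KM4 in CLEC, against 21.3 CPM in EC (log2 ratio -2.19). These reads came from 6 CLEC over both plates and 7 of 84 EC. Cmpk2, the neighbour of Rsad2 on chromosome 12, stood at 0.136 CPM on KM3 and 9.52 on KM4 in CLEC, against 22.7 CPM in EC (-1.99), although the shares of cells were alike at 5.92% in CLEC and 5.95% in EC. The top cell held 50.1% of the Cmpk2 reads of CLEC and 38.4% of those of EC. Mx1 had no read in CLEC and 417 reads in EC, all from 1 of 84 EC. Usp18, which removes the modifier ISG15 and damps the type I receptor, stood at 9.86 CPM on KM3 and 19.3 on KM4 in CLEC, against 33.4 CPM in EC (-1.13), and was at least 2-fold lower only against KM3.

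The members with the highest levels lay within 2-fold. Gbp2, a guanylate-binding protein gene, had 111.8 CPM on KM3 and 237.9 on KM4 in CLEC, against 126.1 CPM in EC. Irgm1, an immunity-related GTPase gene that acts on vacuoles of microbes, had 117.2 and 165.6 CPM in CLEC, against 167.1 CPM in EC. Bst2 had 130.7 and 146.6 CPM in CLEC, against 145.6 CPM in EC. Ifi47, another GTPase gene of this family, had 79.6 and 157.7 CPM in CLEC, against 148.9 CPM in EC. For all but Irgm1 the EC value lay between the CLEC plates.

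By role, all 5 sensors (Ddx58, Dhx58, Ifi204, Ifih1 and Zbp1) and all 4 genes acting on double-stranded RNA (Oas1a, Oas2, Oasl2 and Eif2ak2) had log2 ratios below 0. Of these 9 only Ifi204 and Ifih1 passed 2-fold, and Dhx58 and Zbp1 were above 0 against plate KM4. Since 31 of all 39 members and the median of all genes (-0.10) were below 0, these signs do not set the 2 roles apart. Oas1a, which makes the second messenger of RNase L, stood at 21.1 CPM in CLEC and 37.8 CPM in EC and was read in 9.47% of CLEC (5.51 to 14.9) and 30.95% of EC (21.3 to 41.98), so its share differed more than its level. The factors were mixed, with log2 ratios of 0.37 for Irf1 and 0.95 for Stat2 and of -0.85 for Irf7 and -0.29 for Irf9. Irf1, the gene of a transcription factor, had 71.1 CPM on KM3 and 169.8 on KM4 in CLEC, against 94.3 CPM in EC, so its direction turned with the plate. Among the other effectors Rtp4 (0.02), Sp100 (-0.10), Xaf1 (-0.33), Ifi44 (-0.37) and Ifi35 (-0.42) were all within 2-fold. Trim30a stood at 56.4 CPM in CLEC and 39.1 CPM in EC. Samd9l, whose protein restricts virus translation, stood at 50.1 CPM in CLEC and 81.4 CPM in EC.

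The count of lower members depended on the plate. Without KM4 the count was 14, against 17.1% of all genes, and the median log2 ratio -0.80. Without KM3 it was 7, against 15.3%, with a median of -0.26 and 2 members at least 2-fold higher, against 12.7%. When all cells were thinned to the same depth, 12 members were lower and 2 higher, against 12.4% and 14.9% of all genes.

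**Figure D3:**
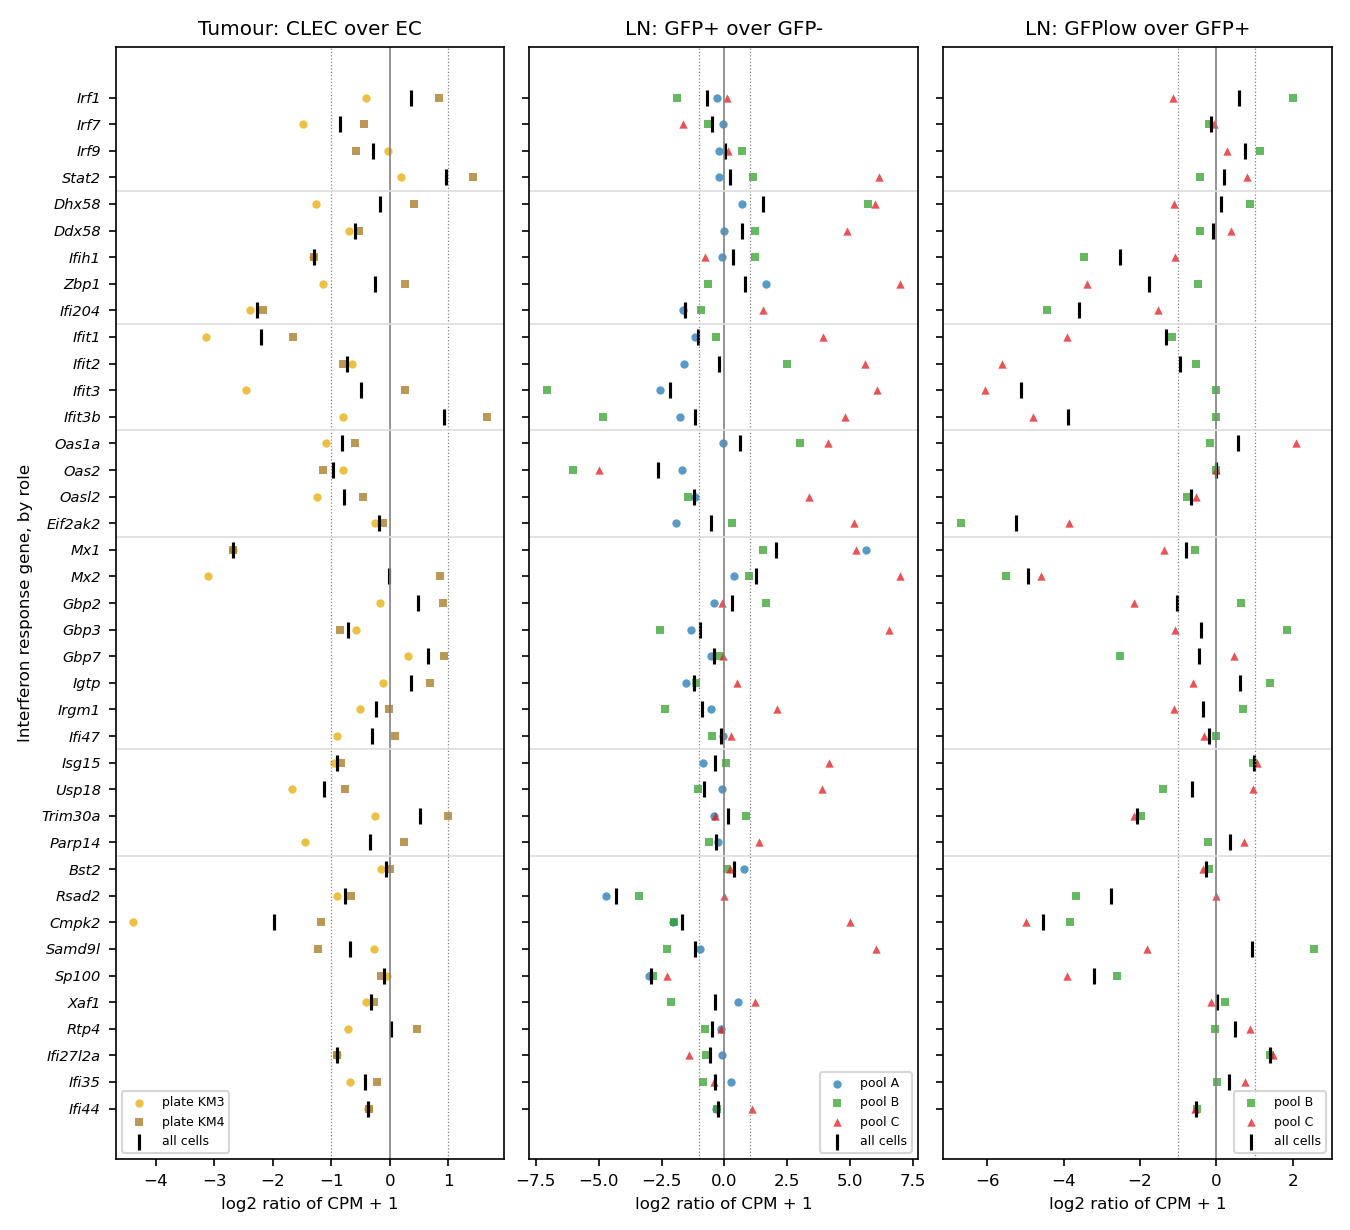
Log2 ratio of each member (rows) for CLEC over EC, LN GFP+ over GFP- and LN GFPlow over GFP+ (panels), with a pseudocount of 1 CPM; symbols are the plate or pool pairs, black ticks are all cells together and dotted lines mark 2-fold. Pairs spread widely for most members, while Ifi204 and Ifih1 lie left of the 2-fold line for both CLEC plates and Sp100 for all 3 pools of GFP+ over GFP-.

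The CLEC plates KM4 and KM3 share gate and tissue and still differed in these genes. On KM4, 14 members were at least 2-fold higher than on KM3 and none was lower, where 15.5% of all genes were higher and 13.2% lower. The median log2 ratio was 0.50 for the members and 0.01 for all genes. The highest ratios were those of Mx2 (16.2 CPM on KM4 and 0.0951 on KM3), Cmpk2 (9.52 and 0.136), Ifit3 (41.5 and 5.49) and Ifit3b (27.2 and 4.16). Ratios over 2-fold were also found for Parp14, Dhx58, Ifit1, Zbp1, Irf1, Trim30a, Stat2, Rtp4, Gbp2 and Irf7. Parp14, an ADP-ribosyltransferase gene, had 49.7 CPM on KM4 and 14.7 on KM3. Samd9l ran the other way, with 34.2 CPM on KM4 and 67.2 on KM3, just under 2-fold. For Mx2 the top cell held 68.6% of all CLEC reads. The labels do not say how the plates differ, and whether animals differed was not tested.

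The second comparison sets CLEC against macrophages from tumours. At least 2-fold higher in CLEC were 2 members, Ifi44 and Ddx58, and 15 were at least 2-fold lower, 13 of them on both plates. Among 14258 genes, 28.1% were higher and 21.6% lower by this rule, and 19.1% and 17.9% on both plates. The 15 of 39 lower members therefore exceed the share among all genes, and the 2 higher ones fall short of it. The median log2 ratio was -0.42, against 0.12 for all genes. Without KM4 it was -0.999 with 19 members lower, against 0.07 and 24.7% for all genes, and after thinning it was -0.20.

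Ifi44, an interferon-induced gene of the cytoplasm, had 42.8 CPM on KM3 and 43.01 on KM4 in CLEC, against 7.93 CPM in macrophages (log2 ratio 2.30). It was read in 18.3% of CLEC (12.8 to 25.01) and in 3 of 81 macrophages. Ddx58 encodes RIG-I, a sensor of RNA with free triphosphate ends. It had 47.2 and 53.2 CPM in CLEC, against 23.1 CPM in macrophages (1.09), and reads in 33.7% of CLEC (26.6 to 41.4) and 11.1% of macrophages (5.21 to 20.0).

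The lower members held the widest contrast of the list. Ifi27l2a had no read in CLEC and 141.5 CPM in macrophages, and was read in 61.7% of macrophages (50.3 to 72.3). Its fold of 7187, set with 3 reads over all CLEC, is a lower bound only if reads were independent molecules. Mx1 had no read in CLEC and 27.4 CPM in macrophages, from 6 of 81 macrophages. Ifi204 had 9.17 and 10.9 CPM in CLEC, against 182.9 CPM in macrophages (-4.06), with reads in 13.02% of CLEC and 54.3% of macrophages (42.9 to 65.4). Ifi204 was thus a gene of many macrophages and of fewer CLEC.

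The interferon-amplifying factor gene Irf7 had 12.8 and 27.7 CPM in CLEC, against 119.8 CPM in macrophages (-2.49). Oas1a had 17.2 and 24.8 CPM in CLEC, against 85.8 CPM in macrophages (-1.97), and Oas2 had 2.85 and 2.04 CPM, against 28.6 CPM (-3.11). Dhx58, which encodes the RNA helicase LGP2, had 2.58 and 10.5 CPM in CLEC, against 38.9 CPM in macrophages (-2.38). Isg15, the ubiquitin-like modifier, had 4.10 and 4.57 CPM in CLEC, against 19.2 CPM in macrophages (-1.92).

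Of the Ifit genes, Ifit1 (-3.24), Ifit3 (-2.11) and Ifit2 (-1.62) were lower on both plates, and Ifit3b was not (0.81). Ifih1 (-1.40) and Cmpk2 (-2.42) completed the 13. Usp18 (-1.23) and Zbp1 (-1.17) were 2-fold lower only against KM3 and over both plates together. The top cell held 72.01% of the Cmpk2 reads and 39.1% of the Ifit1 reads of macrophages. Over both plates together, several members at high level lay within 2-fold. Gbp2 had 111.8 and 237.9 CPM on the CLEC plates and 236.5 in macrophages, so against KM3 alone it passed 2-fold. The others were Irgm1 (142.2 CPM over both plates and 87.1 in macrophages), Bst2 (138.9 and 194.3) and Irf1 (122.1 and 124.96). Without KM3, 5 members were at least 2-fold higher in CLEC, against 28.3% of all genes.

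In LN, the third comparison asks how GFP+ and GFP- endothelial cells of the same pools differ. At least 2-fold higher in GFP+ cells were Mx1, Mx2 and Dhx58, and 11 members were at least 2-fold lower. Among 14056 genes, 24.3% were higher and 23.3% lower, so the 3 higher members are fewer than the background share and the 11 lower ones near it. In every pool, 1 member was higher (5.56% of all genes) and 2 were lower (3.34%). The median log2 ratio was -0.41 for members and 0.04 for all genes, with -0.32 in pool A, -0.66 in pool B and 1.52 in pool C. Pool C, with its 8 GFP- cells, had 17 members at 0 reads in GFP- cells, so its ratios rest on few cells.

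Mx1 encodes a dynamin-like GTPase that blocks influenza virus in the mouse nucleus. It had 48.7, 88.4 and 37.2 CPM in GFP+ cells of pools A, B and C, against 0, 29.7 and 0 CPM in GFP- cells. GFP+ cells were higher in every pool, and their reads came from 26.5% of cells (18.1 to 36.4). In GFP- cells all 610 reads came from 1 of 74 cells, a share of 1.35% (0.0342 to 7.30). The related gene Mx2 had 15.6, 118.3 and 127.5 CPM in GFP+ cells, against 11.8, 60.3 and 0 CPM in GFP- cells.

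Sp100, a component of nuclear bodies that restrict DNA viruses, had 25.2, 11.9 and 14.1 CPM in GFP+ cells of pools A, B and C, against 208.2, 92.6 and 72.4 CPM in GFP- cells (log2 ratio -2.92 over all pools). The GFP+ share with a read was 13.3% (7.26 to 21.6), against a GFP- share of 47.3% (35.6 to 59.3). The pools did not overlap between the gates. Oas2 had 21.2, 0 and 0 CPM in GFP+ cells, against 69.99, 64.4 and 31.05 CPM in GFP- cells (-2.65), with reads in 4 of 98 GFP+ cells and 15 of 74 GFP- cells.

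Rsad2 encodes viperin, an enzyme that makes a chain-terminating nucleotide. It had 4.11 and 11.8 CPM in GFP+ cells of pools A and B, against 132.8 and 133.7 CPM in GFP- cells (-4.33 over all pools), and no read in either gate of pool C. It was read in 4.08% of GFP+ cells (1.12 to 10.1) and 17.6% of GFP- cells (9.70 to 28.2). Igtp, an immunity-related GTPase gene, had 139.3, 144.5 and 163.02 CPM in GFP+ cells, against 404, 321.1 and 114.1 CPM in GFP- cells (-1.20), so pool C ran the other way. The other lower members were Ifit3 (-2.18), Cmpk2 (-1.67), Ifi204 (-1.58), Oasl2 (-1.21), Ifit3b (-1.17), Samd9l (-1.16) and Ifit1 (-1.04), and each stood higher in GFP+ than in GFP- cells in pool C, where the 8 GFP- cells held few or no reads of them.

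Bst2 had 506, 409 and 320.1 CPM in GFP+ cells, against 298.02, 377.9 and 276.9 CPM in GFP- cells, and stayed within 2-fold in every pool. Irf1 had 225.2 CPM in GFP+ cells, against 365.8 in GFP- cells, Ifi47 had 280.9 and 311.7 CPM, and Irf7 had 190.2 and 271.6 CPM. Over all pools together each of these 3 was lower in GFP+ cells, by less than 2-fold. Single pools differed. Irf1 in pool B (log2 ratio -1.88) and Irf7 in pool C (-1.66) passed 2-fold, while Irf1 (0.11) and Ifi47 (0.26) were above 0 in pool C. Without pool A, 8 members were at least 2-fold higher in GFP+ cells and 15 lower, where 30.6% and 27.1% of all genes were. The list of fibroblast and pericyte markers summed to 265.3 CPM in GFP+ cells, with a read in 51.02% of them, against 9.02 CPM and 8.11% in GFP- cells. Rgs5 alone of its 5 genes reached 1 CPM in GFP+ cells (265.3 CPM, in 49 of 98 cells), while Pdgfra, Pdgfrb and Col3a1 were at 0 reads. The part of these transcripts in the members' ratios was not tested.

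GFPlow cells, which the labels call potential CLEC, were compared with GFP+ and GFP- cells within pools B and C, where all 3 gates are present. Of 38 members with a read, 1 was at least 2-fold higher in the 29 GFPlow cells than in the 55 GFP+ cells and 13 were lower, 8 of them in both pools. Among 12830 genes, 22.9% were higher and 31.1% lower; in both pools 5.08% were higher and 11.7% lower. The 13 of 38 lower members lie near the background and the 1 higher member below it.

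The higher member was Ifi27l2a, with 357.2 and 186.3 CPM in GFPlow cells of pools B and C, against 134.4 and 65.5 CPM in GFP+ cells (log2 ratio 1.41). It was read in 62.1% of GFPlow and 49.1% of GFP+ cells of these pools. The kinase gene Eif2ak2, which encodes PKR and stops translation on double-stranded RNA, had 0 and 1.5 CPM in GFPlow cells, against 101.7 and 35.2 CPM in GFP+ cells. Mx2 had 1.64 and 4.38 CPM in GFPlow cells, against 118.3 and 127.5 CPM in GFP+ cells. Trim30a, a mouse TRIM gene, had 43.6 and 39.3 CPM in GFPlow cells, against 174.98 and 178.5 CPM in GFP+ cells (-2.07), and Ifih1 had 13.4 and 18.6 CPM, against 157.6 and 40.3 CPM (-2.52).

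Sp100 (1.12 and 0 CPM in GFPlow cells, against 11.9 and 14.1 in GFP+ cells) and Ifit1 (84.5 and 0 CPM, against 191.2 and 14) were also lower by level in both pools. By share of cells at equal depth, Sp100 and Ifih1 were not lower in both. Sp100 was read in 6.67% of GFPlow and 3.1% of GFP+ cells in pool B, and Ifih1 in 23.1% and 20% in pool C. Cmpk2 and Ifi204 had no read in the 29 GFPlow cells, against 22.3 and 11 CPM in GFP+ cells, where 7.27% and 3.64% of cells held their reads. Pool D has GFPlow cells alone. There Eif2ak2 stood at 56 CPM, Sp100 at 44.2 CPM and Trim30a at 123.5 CPM, above both GFPlow values of pools B and C for each gene. The highest members, Bst2 (301.7 CPM in GFPlow and 363.7 in GFP+ cells), Irf1 (286.3 and 190.9), Ddx58 (255.1 and 270.3) and Ifi47 (212.5 and 241.1), were within 2-fold. Without pool C 6 members were higher, against 25.3% of all genes, and without pool B 3, against 27.9%. The median log2 ratio was -0.43 over both pools and -1.07 without pool B.

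Against the 34 GFP- cells of pools B and C, 6 members were at least 2-fold higher in GFPlow cells and 18 lower, where 28.3% and 33.1% of 12599 genes were. Taken pool by pool, 3 members were at least 2-fold higher in both (9.42% of all genes) and 4 lower (9.12%). One of these 3, Isg15, lay just under 2-fold over both pools together (log2 ratio 0.98). Oas1a had 74.3 and 72.9 CPM in GFPlow cells of pools B and C, against 9.55 and 0 CPM in GFP- cells. These reads came from few cells. At equal depth Oas1a was read in 6.67% of GFPlow and 3.85% of GFP- cells in pool B, and in 15.4% and 0% in pool C. Isg15 had 58.95 and 35.8 CPM in GFPlow cells, against 28.4 and 0 CPM in GFP- cells. Dhx58 had 108.9 and 29.1 CPM in GFPlow cells, against 3 reads in all 34 GFP- cells, but its GFPlow reads came from 10.3% of cells.

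Lower by level in both pools were Sp100, Oas2, Ifih1 and Trim30a. By share of cells at equal depth, only Sp100 and Oas2 of these were lower in both. Ifih1 was read in 26.7% of GFPlow and 23.1% of GFP- cells in pool B, and in 23.1% and 14.3% in pool C. For Trim30a the shares were 40% and 38.5% in pool B, and 15.4% and 28.6% in pool C. Oas2 had no read in GFPlow cells of pools B and C, against 58.2 CPM in GFP- cells, while 1 of 50 GFPlow cells of pool D held 402 reads. Sp100 stood at 0.523 CPM in GFPlow and 88.9 CPM in GFP- cells. Irf1 (286.3 CPM in GFPlow and 401 in GFP- cells), Bst2 (301.7 and 359.3), Igtp (236.03 and 282.9) and Ifi47 (212.5 and 281.8) had the highest levels within 2-fold. The median log2 ratio of -0.71 was 0.86 without pool B, where the median of all genes was 0.77, so no direction holds for the list as a whole. The LN comparisons share cells: the GFP+ cells of pools B and C and the GFP- cells each enter more than 1 of them.

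The GFP- gate held cells both with and without a Prox1 read. Of the 74 GFP- cells, 27 had a Prox1 read and 47 had none. This split was chosen after the data had been seen, and cells with a Prox1 read were deeper, with a median of 839804 reads against 503277. The values are a description. At equal depth the median number of members per cell was 13.5 in cells with a Prox1 read and 13 in cells without. Genes of all kinds were also more in cells with a Prox1 read at this depth, with a median of 2447.5 against 2069. How far this gene number accounts for the members' shares was not tested. The share of cells with a read at this depth was higher beside Prox1 for 24 of 39 members and lower for 15. Ifi27l2a, Zbp1, Rsad2 and Sp100 are described because their values differed, and no such share over all genes was computed.

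Ifi27l2a was read in 81.5% of GFP- cells with a Prox1 read (61.9 to 93.7) and in 21.3% of those without (10.7 to 35.7). In pool A the counts were 10 of 14 and 5 of 26, and in pool B 11 of 12 and 1 of 14. Zbp1, a sensor of Z-form nucleic acid, was read in 59.3% of cells with a Prox1 read (38.8 to 77.6) and 21.3% of those without (10.7 to 35.7). Both genes were read more often beside Prox1 in each of these pools, and after thinning the shares were 80.8% against 20.0% for Ifi27l2a and 57.7% against 17.8% for Zbp1.

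Rsad2 was read in 1 of 27 cells with a Prox1 read (7.90 CPM; share interval 0.0937 to 18.97%) and in 12 of 47 cells without (221.01 CPM; 13.9 to 40.3%), so these intervals overlap. Its counts were 1 of 14 and 7 of 26 in pool A, and 0 of 12 and 5 of 14 in pool B. Sp100 was read in 33.3% of cells with a Prox1 read (16.5 to 53.96) and 55.3% of those without (40.1 to 69.8), with overlapping intervals too.

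When only cells with a Prox1 read were kept in both gates, the GFP+ over GFP- log2 ratio of Rsad2 was -0.28 in place of -4.33. That of Sp100 was -2.44 and that of Mx1 was 0.90, the single GFP- cell with Mx1 reads having a Prox1 read. Of GFP+ cells with a Prox1 read, 57.7% had reads of Ifi27l2a (45.98 to 68.8), 5.13% of Rsad2 (1.41 to 12.6) and 15.4% of Sp100 (8.21 to 25.3). For each of these genes, Ifi27l2a included, the interval overlaps that of GFP- cells with a Prox1 read.

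**Figure D4:**
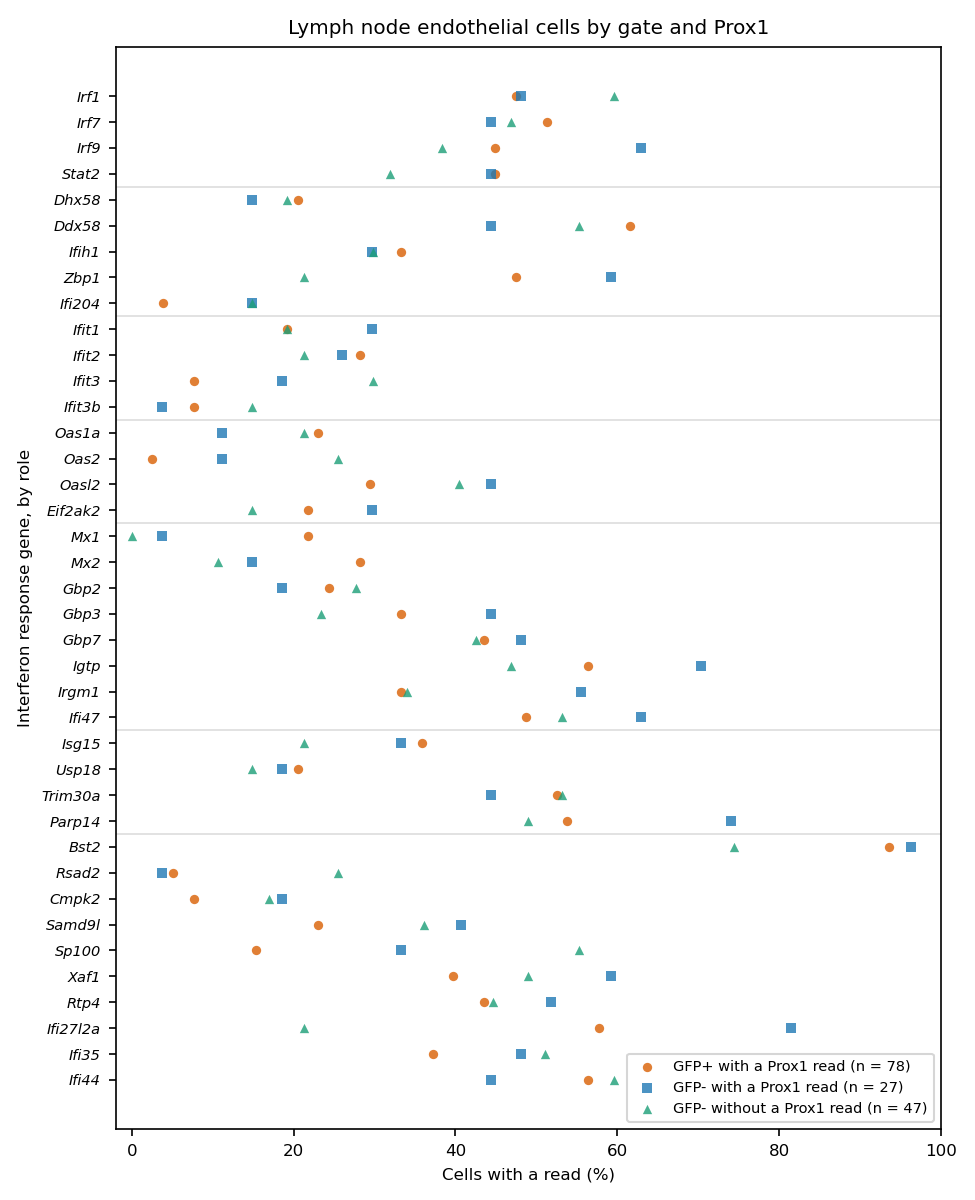
Share of cells with a read of each member (x axis, percent) among 78 GFP+ cells with a Prox1 read, 27 GFP- cells with one and 47 GFP- cells without. Ifi27l2a separates the GFP- cells at 81.5% and 21.3%, and Rsad2 stands at 3.70% and 25.5%.

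Members varied together from cell to cell only weakly. Over all pairs of members read in at least 10% of cells, the median Spearman correlation within a plate was 0.06 on KM3 and 0.10 on KM4 for CLEC, 0.12 for EC and 0.17 for macrophages, against 0.01 to 0.03 for all gene pairs. Cells of a plate share its batch, and the values describe these cells only. In CLEC the closest pairs held the GTPase gene Gbp2, with 0.51 for Gbp2 and Zbp1 on KM4 and 0.41 for Gbp2 and Gbp3 on KM3. In EC the closest was Ifit3 and Isg15 (0.48). In LN the correlation was 0.72 for Ifit1 and Isg15 and 0.70 for Ifit3 and Usp18 among GFP- cells of pool A.

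A few cells held the strongly induced effectors together. In macrophages at equal depth, 5 of 7 cells with Rsad2 also had Cmpk2, against 0 of 74 cells without Rsad2, and in EC 3 of 4 against 2 of 78. In CLEC it was 1 of 6 cells with Rsad2 against 4.97% of those without (2.17 to 9.56). Ifit3 was read in 5 of 6 macrophages with Ifit1 and in 3 of 75 without, and in 4 of 7 EC with Ifit1 and 8 of 75 without. Igtp and Irgm1 were shared more broadly, with Irgm1 in 20 of 40 CLEC that had Igtp and in 26.8% of those that had not (19.3 to 35.4).

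Outside the list, genes were ranked by how closely their level followed the number of members with a read, across cells at equal depth. The rank used the mean Spearman correlation of the 3 EC and CLEC plates, among 3163 genes read in at least 25% of cells. Among the closest were Tgtp2 (0.46), Psmb9 (0.37), Tap1 (0.35), Psmb8 (0.34), Tgtp1 (0.33), B2m (0.32), Tapbp (0.32), Ifitm3 (0.31) and H2-Q7 (0.29). Tgtp1 and Tgtp2 are T-cell-specific GTPase genes of the immunity-related GTPase family. Psmb8, Psmb9, Tap1, Tapbp, B2m and H2-Q7 belong to antigen presentation by MHC class I.

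Of 22 genes that make up interferon signalling, 17 had a read in CLEC or EC, and 1 was at least 2-fold higher and 1 lower, where 12% and 11.7% of all genes were. Jak2, a kinase of the interferon gamma receptor, had 69.6 CPM in CLEC and 27.6 CPM in EC (log2 ratio 1.31) and was higher on both plates. Socs1, the feedback inhibitor of the receptor kinases, was the lower one, with 4.23 CPM in CLEC and 10.02 CPM in EC (-1.08). Against macrophages 3 of 20 were higher in CLEC and 9 lower, all on both plates, where 19.1% and 17.9% of all genes were. Tlr3, the endosomal sensor of double-stranded RNA, had 53.3 CPM in CLEC and 6.90 CPM in macrophages (2.78), Jak1 had 269.3 and 126.9 CPM (1.08), and Jak2 had 69.6 and 23.1 CPM (1.55). Tlr7 had no read in CLEC and 65.4 CPM in macrophages, and the factor gene Irf5 had 0.984 CPM in CLEC and 350.1 CPM in macrophages. Of the ligand genes, Ifnb1 and Ifnk had no read in any tumour or LN group, and among these groups Ifng was read in macrophages alone, at 5.91 CPM in 2.47% of cells.

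In LN, 4 of 17 signalling genes with a read were at least 2-fold higher in GFP+ than in GFP- cells and none was lower, where 24.3% and 23.3% of all genes were. Ifngr2, a chain of the interferon gamma receptor, had 299.3 CPM in GFP+ cells and 81.1 CPM in GFP- cells (1.87), and reads in 68.4% and 31.1% of cells. Socs1 had 74.03 CPM in GFP+ cells and 34.6 CPM in GFP- cells (1.07), and both were at least 2-fold higher in every pool. The receptor kinase gene Jak1 (1328 CPM in GFP+ and 600.1 in GFP- cells) and Irf5 (18.8 and 7.84) were higher over all pools together. In pools B and C Ifngr2 had 356.4 CPM in GFPlow and 74.1 CPM in GFP- cells (2.25). Against GFP- cells 2 of the 17 were higher and 4 lower in GFPlow cells, where 28.3% and 33.1% of all genes were. Against GFP+ cells 1 was higher and 3 lower, where 22.9% and 31.1% were.

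Of 29 further interferon-induced genes, 28 had a read in CLEC or EC, with 2 higher and 3 lower in CLEC, at or below the shares of 12% and 11.7% of all genes. The higher ones, over both plates together, were the chemokine gene Cxcl10 (61.9 CPM in CLEC and 7.79 in EC), from 2.96% of CLEC, and the GTPase gene Gbp6 (60.7 and 19.97). The lower ones were Oas1g (0.637 CPM in CLEC and 7.29 in EC), Oas3 and Isg20, lower on both plates. Against macrophages 2 of 29 were higher and 12 lower in CLEC, where 28.1% and 21.6% of all genes were. The higher ones were the GTPase genes Gbp4 (119.3 CPM in CLEC and 36.1 in macrophages) and Iigp1 (170.99 and 39.3), both on either plate. Between GFP+ and GFP- LN cells, 2 of 28 were higher and 8 lower, where 24.3% and 23.3% of all genes were. Cxcl10 had 382.9 CPM in GFP+ cells and 92.2 CPM in GFP- cells (2.04), and was read in 35.7% and 5.41% of cells. Ifi27 had 352.8 and 155.5 CPM (1.18) over all pools together. Gbp6 had 119.8 CPM in GFP+ cells and 302.4 CPM in GFP- cells (-1.33), lower in every pool. In pools B and C, 3 of 27 were higher and 12 lower in GFPlow than in GFP- cells, where 28.3% and 33.1% of all genes were. Against GFP+ cells, 1 of 26 was higher and 8 lower, where 22.9% and 31.1% were. The signs for these genes thus differed within the LN comparison, as they did for Mx1 and Sp100 among the members.

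Some members have a near copy in the genome between which reads could be split, so their values are uncertain. Ifit3 and Ifit3b share 97.8% of 1700 aligned bases, Oas1a and Oas1g 97.5% of 1860, and Mx1 and Mx2 94.8% of 920. Ifi204 and Mndal share 97.7% of 486 bases. Gbp3, Gbp7 and Irf9 lay within 2-fold in both tumour comparisons. Gbp3 had 71.6 CPM in CLEC, 118.02 in EC and 78 in macrophages, Gbp7 had 94.9, 59.97 and 68.3 CPM, and Irf9, the DNA-binding partner of STAT2, had 42.1, 51.9 and 57.4 CPM.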

How the data were processed

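Cells were sorted singly into plates, and libraries were made with a modified SMART-seq2 protocol of 20 cDNA cycles and Nextera XT, per the labels' protocols. The authors deposited 2 tables of raw read counts per gene; all their values are whole numbers. Build mm10 and the tools STAR 2.4.1b, Subread 1.4.6-p2 and FastQC 0.11.4 are listed in the submitters' processing notes. Whether counting used strand is not given in the sources used here. All 768 columns matched a labelled well, which left 0 columns unused for want of a sample, and 51734 symbols remained after rows of the same symbol were summed.

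Cells needed 50000 or more reads in genes, 1000 or more genes detected and no more than 25% mitochondrial reads. Since wells were sorted singly, doublets were not called. Group levels are CPM of summed counts, intervals of shares are exact Clopper-Pearson 95%, and log2 ratios carry a pseudocount of 1 CPM. Where a group had 0 reads, the fold was bounded with 3 reads in that whole group, and the limit of a share of 0 is 3 cells over the number of cells. For members per cell, each cell was thinned to 100000 reads. No label names an animal, so no test was run. The 5 comparisons were also made within each pair of plates or pools that had 5 or more cells per group. A fold of 2 was the threshold, and the background counts genes with at least 1 CPM in either group.

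Members and lists were chosen with earlier results of these data known. The rule named members at least 2-fold apart in every pair and up to 4 members within 2-fold with the highest level in either group. The Prox1 split, the comparison of plates KM4 and KM3 and the directions of thinned shares were added after the data had been seen. Alternatives were mean per-cell CPM, median-of-ratios scaling, a pseudocount of 5 CPM, a filter on low members, a stricter cell filter, thinning, the top cell of each member left out, Prox1 cells alone, and each plate or pool left out. Gene positions are from GENCODE on GRCm38, promoters from RefSeq, and near copies were found with BLAST+ 2.17.0. Work was done in Python 3.11.15 with numpy 2.4.6, pandas 2.3.3, scipy 1.17.1 and matplotlib 3.10.9, and the steps were tested on simulated data. A few single genes are not reported here.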

Additional observations from a re-analysis of the deposited data

Results flagged for a closer look

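Mx1 moved in opposite directions between GFP+ and GFP- endothelial cells of the tumour and of LN. In the tumour it had no read in CLEC and 5.39 CPM in EC, a log2 ratio of -2.68 with the pseudocount against either CLEC plate. In LN it had 56.2 CPM in GFP+ and 12.8 CPM in GFP- cells, a log2 ratio of 2.05, and was higher in GFP+ cells of every pool. This difference was not tested, the tables are separate, and all Mx1 reads of EC came from 1 of 84 cells.

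The GFP+ cells from blood, which enter no comparison, held reads of the list. Over the 7 cells that passed the filter, 33 of the 39 members had more than 3 reads, with 20556 reads in all. The number of members read per cell had a median of 6 and a maximum of 29. The 2 wells without a cell held 0 reads of the members.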

How the results depend on the processing

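Medians and counts moved with the cells and plates used, and 1 median reversed. No paired test was run, as no test between groups was run here. The LN gates share pools, and their ratios within each pool stand in its place. For CLEC against EC, the mean of per-cell CPM gave 2 higher and 11 lower members, thinning 2 and 12, median-of-ratios scaling 2 higher and leaving out each top cell 1 higher; that scaling moved the median of all genes from -0.10 to 0.03. Leaving out a plate gave medians of -0.80 to -0.26, 0 to 2 higher and 7 to 14 lower. For CLEC against macrophages, the count of higher members was 4 by per-cell CPM, 4 after thinning, 4 without top cells and 1 with a pseudocount of 5 CPM; without a plate it was 2 to 5, with medians of -0.999 to -0.33 and 13 to 19 lower. The median was -0.20 after thinning. For GFP+ against GFP-, leaving out a pool gave 2 to 8 higher members. For GFPlow against GFP-, it gave medians of -0.82 to 0.86, reversed at 0.86 without pool B, and -1.06 without top cells, with 6 to 15 higher and 7 to 18 lower without a pool. For GFPlow against GFP+, higher members were 3 under the stricter filter, 2 after thinning and 2 among cells with a Prox1 read, where the median was -1.02. It was -0.77 without top cells and -0.22 after thinning; leaving out a pool gave medians of -1.07 to -0.32 and 3 to 6 higher. Called members that stayed past 2-fold in every alternative were 4 of 6 for CLEC against EC, 11 of 17 for CLEC against macrophages, 4 of 14 for GFP+ against GFP-, 5 of 24 for GFPlow against GFP- and 7 of 14 for GFPlow against GFP+. Mx1 lost its call for CLEC against EC when the top cell was left out. The causes were not tested. Depth limits members read in few cells, and 8 GFP- cells of pool C limit every ratio that uses them.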

Other observations

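The 7 kept blood cells carry the label of Csf1r lineage endothelial cells. Their endothelial markers went against it, with Cdh5 at 0 reads and Pecam1 at 134.2 CPM, while the leukocyte gene Ptprc stood at 260.2 CPM and Laptm5 at 1700 CPM. The members summed to 4156 CPM over these cells, and the cell with the most members held 27 at 100000 reads, against a median of 6. Sp100 was the highest member by CPM, and the single kept blood cell of pool B had 5 members.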
